A study of Mus musculus with 3 samples.

Results

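Type 2 conventional dendritic cells were examined among live CD45+ cells that had been sorted from mouse pancreas and profiled by single-cell RNA sequencing. The study used young adult wild-type C57BL/6 mice of both sexes, and no transgene was involved. The series holds 1 library of mice that received PBS, another of mice whose WGP injection preceded euthanization by 3 days (3-day WGP), and another with an interval of 7 days (7-day WGP). WGP is a particulate β-glucan, the hollow cell wall of baker's yeast, and the study injected it into the peritoneum. The labels give the time only for WGP, and the number and sex of the mice behind a library were not given. A cell was counted as a member when its barcode had at least 1000 UMIs (unique molecular identifiers, each standing for 1 captured transcript), no more than 30% of them mitochondrial, at least 2 UMIs of Flt3 and Cd209a together and at least 10 of the MHC class II gene H2-Ab1. It also had to lack Xcr1, Clec9a, Fscn1, the 3 C1q genes, Siglech, Cd79a, Cd3e and Cd3d, and to hold fewer than 2 UMIs of Ly6c2. This gave 143 members of 14302 kept barcodes, with 63 in the PBS library, 22 at 3 days and 58 at 7 days after WGP. Wherever 3 values stand in a row they keep this order of libraries.

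Conventional dendritic cells take up antigen in tissue and present it to T cells, and they depend on the receptor FLT3 and the factor ZBTB46. The type 2 branch rests on IRF4, NOTCH2 and KLF4, carries SIRPα and CD11b (Itgam) together with C-type lectins such as CD209a, CLEC10A and MGL2, and is known mainly for MHC class II presentation to CD4+ T cells. The type 1 branch rests on IRF8 and BATF3, carries XCR1 and CLEC9A and is known for cross-presentation to CD8+ T cells. Yeast β-glucan particles are sensed by the C-type lectin dectin-1, whose signal runs through SYK and CARD9. Interferon-γ, a product of T and NK cells, induces genes of the guanylate-binding protein family, the immunity-related GTPases and the CXCR3 ligands.

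Markers that the rule did not use were checked before the libraries were compared. Levels are UMIs of a gene summed over the members of a library and divided by that library's sum and multiplied by 1000000 (CPM), so each level describes the pooled members of 1 library. Sirpa, the inhibitory receptor of the type 2 branch, stood at 184, 214 and 194 CPM, and Zbtb46 at 57.3, 47.6 and 45.1 CPM. Zbtb46 was at 0, 0 and 1.90 CPM in Ly6c2-high monocytes of the same libraries. Itgam, Clec10a and Mgl2 were present in every library at levels given further on, while Esam, a marker of the NOTCH2-dependent type 2 subset, had 0 UMIs in all 3. The 10 markers of type 2 conventional dendritic cells that the rule left unused summed to 2321 CPM, 1181 CPM and 909 CPM. The 9 type 1 markers summed to 728, 634 and 623 CPM, nearly all of it from Naaa, Wdfy4, Batf3 and, after WGP, Irf8. Xcr1 and Clec9a are among these 9 and were held at 0 by the rule, so the type 1 sum was limited in advance. By the 10 unused type 2 markers the label was best borne out in PBS, with a lower sum at both times after WGP.

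Members had a median of 13732, 10890 and 11615 UMIs and of 3420, 2961 and 2895 genes. Their summed UMIs came to 889684, 252276 and 664556, so the 3-day values are the least precise. No member barcode was shared between libraries. Each group was 1 library, so there was no replicate check and no test. Intervals in parentheses are 95% intervals that cover counting error only. A gene was called when its log2 ratio to PBS was at least 1 in size with an interval that left out 0, among the 4105 genes with a mean of at least 30 CPM over the libraries. The comparisons at 3 and 7 days share the PBS library.

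The sex of the cells differed between the groups. Xist, the transcript of the inactive X chromosome, marks female cells, and Y chromosome genes mark male cells. In PBS 61 members had Xist only and 1 had Y transcripts only, whereas the numbers were 4 and 8 in 3-day WGP and 15 and 40 in 7-day WGP. Among all kept barcodes with 1 kind of signal only, Xist cells made up 54.0%, 16.0% and 39.3%, so the PBS members were more female than their library. Type 1 conventional dendritic cells of PBS had Xist only in 37 cells and Y only in 21. Sex and treatment cannot be told apart in the members as a whole, and gene ratios were therefore also computed among Xist-only members (61 in PBS, 4 at 3 days and 15 at 7 days). Fewer cells widen the intervals there, so a lost call can come with a similar ratio. Of the genes called at 7 days, 89 of 175 higher and 96 of 212 lower met the same limits among Xist-only members, and 11 and 3 had the opposite sign. At 3 days, with 4 cells, these numbers were 96 of 171 and 39 of 212, with 8 and 7 of opposite sign. Within 7-day WGP the Y-only members had higher levels than the Xist-only members of several genes described here, among them Ifitm1 by 0.94 (0.72 to 1.17) and Gbp2 by 1.84 (1.19 to 2.57) on the log2 scale.

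The genes of the rule were unevenly carried, which bears on the 3-day library above all. Cd209a and Flt3 were found together in 35, 9 and 29 members, Cd209a alone in 24, 5 and 25, and Flt3 alone in 4, 8 and 4. The median sum of the pair was 20, 6 and 9 UMIs a member. Exactly 2 UMIs, the least the rule allows, were seen in 2, 4 and 7 members, and 6, 1 and 14 barcodes that met every other condition fell just outside with 1 UMI. The median of H2-Ab1 was 134, 107.5 and 93 UMIs a member. A further 16, 1 and 12 barcodes were left out for 1 UMI of a C1q gene, and 6, 5 and 8 for 1 UMI of Xcr1 or Clec9a. The 8 Flt3-only members of 3-day WGP had Ccr2 at 238 CPM, with Mgl2 and Clec10a at 0, and 34 of their 35 Ccr7 UMIs were in 1 cell.

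Type 2 conventional dendritic cells were less frequent 3 days after WGP and back near the PBS share at 7 days. They made up 1.20% (0.923 to 1.53) of kept barcodes in the PBS library, 0.451% (0.283 to 0.682) at 3 days and 1.39% (1.06 to 1.79) at 7 days, by exact binomial intervals. The log2 ratio of shares to PBS was -1.41 (-2.11 to -0.71) at 3 days and 0.21 (-0.30 to 0.72) at 7 days. Type 1 conventional dendritic cells, chosen by Xcr1 and Clec9a with no limit on Flt3 or Cd209a, held 1.30%, 1.56% and 1.41% of the same barcodes. Of the type 1 and type 2 cells together, type 2 cells were 48.1% (39.3 to 57.0), 22.4% (14.6 to 32.0) and 49.6% (40.2 to 59.0). Dendritic cells with Fscn1, the actin bundler of migratory dendritic cells, numbered 6, 20 and 26, and Ly6c2-high monocytes 43, 69 and 310. These shares depend on what else was sorted, and they cannot tell fewer type 2 cells from fewer cells that pass the rule. Among Xist-only cells the 7-day ratio was -1.27, and among Y-only cells, with 1 member in PBS, the ratios were 2.47 and 5.22.

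**Figure D1:**
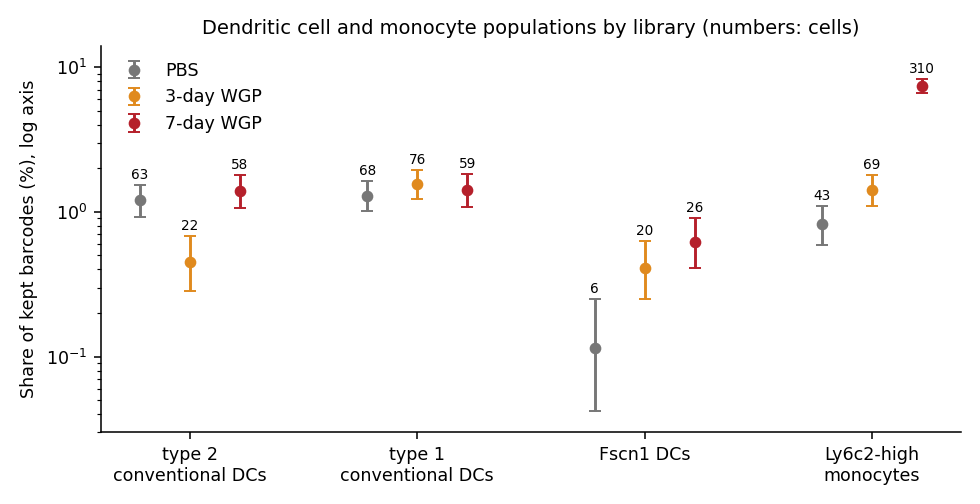
Share of kept barcodes (percent, logarithmic vertical axis, cell numbers above the bars) held by type 2 conventional dendritic cells and the populations most like them in PBS, 3-day WGP and 7-day WGP, with exact 95% binomial intervals as bars. Type 2 cells fall from 1.20% to 0.451% at 3 days and stand at 1.39% at 7 days, while Ly6c2-high monocytes reach 7.43%.

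Across all 4105 genes tested in members, 171 were called higher and 212 lower at 3 days, which is 4.17% and 5.16%, and 175 higher and 212 lower at 7 days, which is 4.26% and 5.16%. The median log2 ratio over all of them was -0.06 at 3 days and -0.05 at 7 days. Against that background the interferon-γ genes stood highest at 7 days, with a median of 3.23, followed by costimulation genes at 1.24, type I interferon genes at 1.16 and chemokines at 1.13. Proliferation genes stood lowest at both times, at -2.04 and -1.12. MHC class II genes, glycolysis genes and the conventional dendritic cell core had medians between -0.18 and 0.27.

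**Figure D2:**
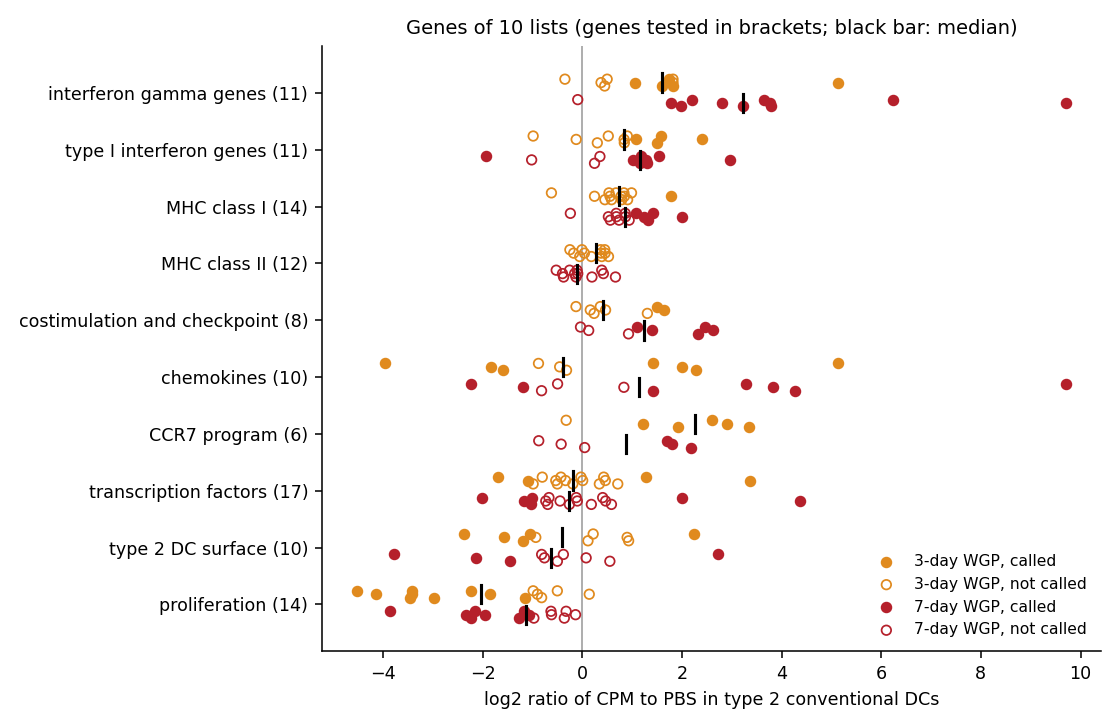
Log2 ratio of summed CPM to PBS (horizontal axis) for each tested gene of 10 gene lists (rows) in type 2 conventional dendritic cells, at 3 and 7 days after WGP, with filled points for called genes and a bar at the list median. The interferon-γ genes spread to the right at 7 days around a median of 3.23, nearly all proliferation genes lie below 0, and MHC class II genes lie close to 0.

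The interferon-γ genes were the group with the highest median at 7 days. Of the 11 tested, 5 were called higher and none lower at 3 days, and 10 were called higher at 7 days, with medians of 1.59 and 3.23. Irf1, a transcription factor that interferon-γ induces (chr11:53770014-53778374, plus strand of GRCm38), stood at 32.6, 67.4 and 229 CPM, in 18, 9 and 39 members. Its log2 ratio to PBS was 1.05 (0.09 to 1.96) at 3 days and 2.81 (2.23 to 3.44) at 7 days. At 7 days the level of Irf1 was also above that at 3 days, with a log2 ratio of 1.76 (1.04 to 2.58). The 3-day call of Irf1 did not hold among Xist-only members, where its ratio was -0.85 over 4 cells.

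The guanylate-binding proteins and the immunity-related GTPases, which attack the vacuoles of intracellular microbes, were called mainly at 7 days. Gbp2 stood at 23.6, 79.3 and 321 CPM, in 9, 6 and 25 members, with ratios of 1.75 (0.79 to 2.70) and 3.76 (3.11 to 4.48). Gbp5 rose from 7 to 65 UMIs at 7 days, a ratio of 3.64 (2.51 to 5.01), and was also called at 3 days on 7 UMIs. Within 7-day WGP it stood at 134 CPM in Y-only and 11.2 CPM in Xist-only members, and the 7-day ratio among Xist-only members was 0.49. Gbp4 at 6.74, 23.8 and 63.2 CPM and Gbp7 at 30.3, 23.8 and 104 CPM were called at 7 days only. The GTPases Igtp at 11.2, 15.9 and 155 CPM, Irgm1 at 49.5, 67.4 and 229 CPM and Iigp1 at 2.25, 7.93 and 169 CPM had 7-day ratios of 3.79 (2.85 to 4.89), 2.21 (1.72 to 2.73) and 6.23 (4.34 to 9.29) and were not called at 3 days. Cxcl9, a CXCR3 ligand that attracts T cells, had 1 UMI in PBS, 10 in 1 cell of 3-day WGP and 622 in 16 cells of 7-day WGP, a 7-day ratio of 9.70 (7.22 to 15.01). Ciita, the class II transactivator, was the list's exception at 352, 456 and 329.5 CPM. Socs1, the feedback inhibitor of this pathway, was too low to be tested and had 4, 0 and 51 UMIs, while Ido1 and Nos2 had none in any library.

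Promoters of these genes were read for the 2 motifs of the pathway. RefSeq promoters (GRCm38.p6, 250 bases before the gene start) were in hand for 7 of the 11 genes. A GAS motif (interferon-γ activated site), TTCNNNGAA, was present in 4 of them and an ISRE core, GAAANNGAAA, read on both strands, in 5, and 6 had at least 1 of the 2. Of 32536 promoters of the same length, 7.04% held the GAS letters and 2.98% the ISRE letters. Such a match is a description of letters, not a binding site. The list was made of genes known for interferon-γ, so the matches describe that choice. The promoter of Cxcl9 held neither motif within 250 bases, nor did that of another listed start of Irf1. The promoters of Irf1, Gbp7 and Igtp are shown, with capitals where a motif matched, each read 5′ to 3′ on the plus strand, which is the strand of all 3 genes. Irf1 (chr11:53769764-53770013) holds a GAS match at -90 from the start. Gbp7 (chr3:142530086-142530335) holds GAS matches at -106 and -87 and an ISRE match on the other strand at -53. Igtp (chr11:58199306-58199555) holds a GAS match at -45 and an ISRE match at -34, and no matches overlap in the 3 stretches shown.
Irf1: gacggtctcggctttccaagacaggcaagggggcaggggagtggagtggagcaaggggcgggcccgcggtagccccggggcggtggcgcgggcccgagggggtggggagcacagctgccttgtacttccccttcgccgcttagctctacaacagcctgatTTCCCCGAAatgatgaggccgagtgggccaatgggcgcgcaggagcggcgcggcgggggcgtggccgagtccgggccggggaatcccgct
Gbp7: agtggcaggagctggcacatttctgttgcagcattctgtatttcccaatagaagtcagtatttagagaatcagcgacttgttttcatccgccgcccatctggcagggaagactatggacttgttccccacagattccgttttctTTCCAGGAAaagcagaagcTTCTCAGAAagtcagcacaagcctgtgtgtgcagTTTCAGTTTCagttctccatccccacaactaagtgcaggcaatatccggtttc
Igtp: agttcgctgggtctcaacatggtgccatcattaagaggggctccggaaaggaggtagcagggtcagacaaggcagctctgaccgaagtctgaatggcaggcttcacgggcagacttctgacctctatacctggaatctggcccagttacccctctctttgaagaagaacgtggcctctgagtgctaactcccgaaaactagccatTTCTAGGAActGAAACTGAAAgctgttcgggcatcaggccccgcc

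The response was also read cell by cell. After each cell was thinned to 1000 UMIs, at least 2 of the 11 interferon-γ genes were seen in 4 of 63 PBS members, 6.35% (1.76 to 15.5), in 5 of 22 members of 3-day WGP, 22.7% (7.82 to 45.4), and in 28 of 58 members of 7-day WGP, 48.3% (35.0 to 61.8). B cells, taken as the level in a population that is not myeloid, stood at 7.25%, 5.70% and 22.2%. Type 1 conventional dendritic cells stood at 11.8%, 7.89% and 28.8%, Fscn1 dendritic cells at 16.7%, 30% and 69.2%, and Ly6c2-high monocytes at 11.6%, 29.0% and 67.7%. The type 2 members thus lay between the type 1 cells and the monocytes at 7 days. The median log2 ratio of the list was 1.59 and 3.23 in type 2 cells, -0.54 and 1.87 in type 1 cells, 1.51 and 3.02 in Fscn1 dendritic cells and 1.21 and 3.01 in monocytes. At 3 days only 10 of the 11 genes had a ratio in type 1 cells, 8 in Fscn1 dendritic cells and 10 in monocytes. The Fscn1 ratios rest on 6 PBS cells. These differences between populations were not tested, since the smallest exact p that 3 paired libraries allow is 0.25.

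**Figure D3:**
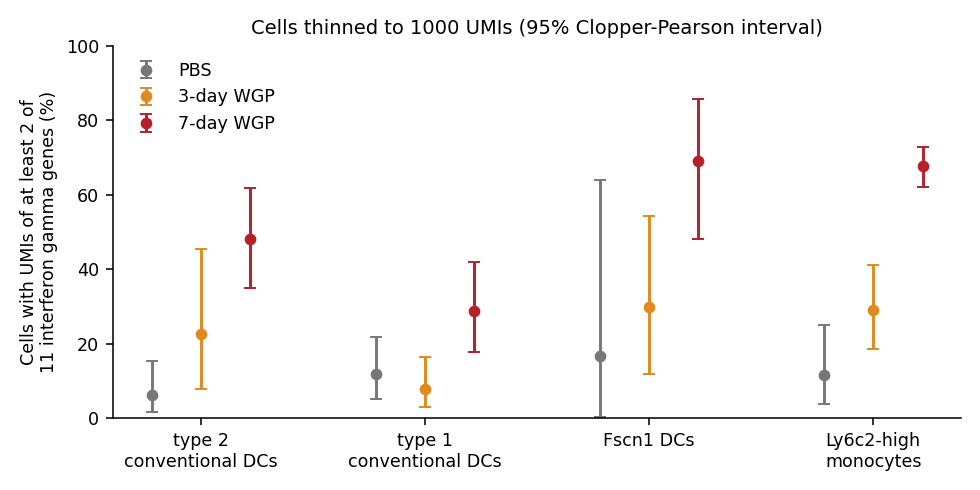
Percent of cells with UMIs of at least 2 of the 11 interferon-γ genes after thinning to 1000 UMIs (vertical axis), by library, for type 2 conventional dendritic cells and 3 related populations, with exact 95% binomial intervals. Type 2 cells go from 6.35% in PBS to 22.7% and 48.3%, below the monocytes and Fscn1 dendritic cells and above type 1 cells at 7 days.

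Sex and monocyte markers differed between the libraries along with these genes. Among Xist-only members the list's median was 0.91 at 3 days and 2.01 at 7 days, so the direction held within female cells at a smaller size. Of the calls, 2 of 5 held there at 3 days and 9 of 10 at 7 days, the exception at 7 days being Gbp5. The 9 monocyte markers summed to 1062, 1760 and 2539 CPM. Plac8, a small cysteine-rich protein of monocytes and their progenitors, stood at 215, 844 and 1640.2 CPM and made up most of the 7-day sum, with ratios of 1.98 (1.69 to 2.26) and 2.93 (2.71 to 3.16). Ccr2 was level at 777, 777 and 656 CPM, and the defining monocyte genes Vcan and Chil3 had at most 1 UMI in any library. Ly6c2, which the rule held under 2 UMIs a cell, was seen in 3, 1 and 16 members. The part of such cells in the gene ratios was not tested.

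Genes known for type I interferon moved less evenly. Of 11 tested, 4 were called higher at 3 days, and 7 higher and 1 lower at 7 days, with medians of 0.84 and 1.16. Irf7, the amplifier of type I interferon, stood at 13.5, 71.4 and 105 CPM, with ratios of 2.40 (1.27 to 3.59) and 2.97 (2.07 to 3.98). Isg15, a ubiquitin-like protein, stood at 57.3, 163 and 138 CPM and was called at both times, although 1 cell held 56.1% of its UMIs at 3 days. Oasl2, Bst2, Rtp4, Stat2 and Ifitm3 were called at 7 days, Oasl2 also at 3 days. Among Xist-only members 4 of the 7 called higher at 7 days held, without Isg15, Oasl2 and Bst2. The membrane protein Ifitm3 was abundant throughout, at 1689, 3017 and 4879.9 CPM, with a 7-day ratio of 1.53 (1.44 to 1.62). The antiviral Ifit1 went the other way at 62.9, 31.7 and 16.6 CPM, but 1 PBS cell held 75.0% of its PBS UMIs. Ifit3 was called higher at 3 days on 16 UMIs, 56.2% of them in 1 cell.

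MHC class II, the main output of this cell type, was level. None of 12 tested genes was called at either time, and the medians were 0.27 and -0.12. H2-Aa, the partner chain of the rule gene H2-Ab1, stood at 10864, 12300.0 and 9742 CPM, and the invariant chain Cd74 at 19302, 19185 and 17655 CPM. The peptide exchangers H2-DMa and H2-DMb1 had ratios of -0.18 and -0.25 at 3 days and -0.11 and 0.19 at 7 days. H2-Ab1 itself, which the rule selected on, stood at 10858, 10457 and 8349.9 CPM. Cells with fewer than 10 H2-Ab1 UMIs could not be members, so a cell that lost class II would not be seen here. On this condition alone 8, 6 and 3 barcodes were left out. In Ly6c2-high monocytes the median was 2.17 at 7 days, over the 10 of these 12 genes that had a ratio there. Members had to hold at least 10 H2-Ab1 UMIs and the monocytes did not, so the 2 medians are not directly comparable.

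MHC class I genes were higher in part. Of 14 tested, 1 was called higher at 3 days and 5 at 7 days, none lower, with medians of 0.73 and 0.86, and 2 of the 5 held among Xist-only members. The class Ib gene H2-Q7, whose reads may be split with close relatives, stood at 67.4, 229.9 and 271 CPM, with ratios of 1.77 (1.22 to 2.31) and 2.01 (1.58 to 2.45). The immunoproteasome parts Psmb9, Psmb10 and Psme2 had 7-day ratios of 1.07 (0.81 to 1.33), 1.41 (1.08 to 1.75) and 1.23 (0.99 to 1.49), and the peptide transporter Tap1, at 128, 254 and 321 CPM, one of 1.32 (0.99 to 1.66). The classical gene H2-K1 at 1135, 2129 and 2060.0 CPM and the light chain B2m at 1286, 1926 and 2062 CPM were not called, with 7-day ratios of 0.86 (0.74 to 0.98) and 0.68 (0.57 to 0.80).

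Costimulation genes, which let a dendritic cell activate T cells, were higher after WGP. Of 8 tested, 2 were called higher at 3 days and 5 at 7 days, with medians of 0.41 and 1.24 and none lower. Cd40, the receptor for T cell help, stood at 22.5, 63.4 and 123 CPM, in 15, 9 and 34 members, with ratios of 1.50 (0.45 to 2.52) and 2.46 (1.74 to 3.24). Cd83, which stabilises surface MHC class II and CD86, stood at 49.5, 155 and 245 CPM, with ratios of 1.64 (0.98 to 2.30) and 2.31 (1.82 to 2.83). Within 7-day WGP Cd83 stood at 310 CPM in Y-only and 112 CPM in Xist-only members. The CD28 ligand Cd86 was at 51.7, 71.4 and 135 CPM and was called at 7 days, 1.39 (0.86 to 1.93), although the ratio among Xist-only members was -0.13. The checkpoint ligand Cd274 (PD-L1) at 11.2, 27.7 and 69.2 CPM and the adhesion ligand Icam1 at 67.4, 79.3 and 144 CPM were called at 7 days, with ratios of 2.62 (1.62 to 3.77) and 1.10 (0.62 to 1.59). Tnfsf9, the ligand of 4-1BB, was at 110.2, 123 and 209 CPM and missed the size limit at 7 days, at 0.93 (0.54 to 1.31). Cd80 had 12, 2 and 11 UMIs and was not tested.

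Some C-type lectins of the type 2 branch were lower after WGP, Mgl2 at both times, Clec10a at 3 days and Clec4a2 at 7 days, and Sirpa was not called. Of 10 surface genes tested, 1 was called higher and 4 lower at 3 days, and 1 higher and 3 lower at 7 days. The medians were -0.41 and -0.63, and the 4 lower genes at 3 days include the rule gene Cd209a at 1469, 642 and 1037 CPM. Mgl2, a galactose-type lectin also called CD301b (chr11:70130329-70137550, plus strand), stood at 826, 277 and 60.2 CPM and was found in 45, 5 and 9 members. Its ratios were -1.57 (-1.95 to -1.22) and -3.78 (-4.28 to -3.32), and -2.93 and -3.06 among Xist-only members. Clec10a, its neighbour on chromosome 11 (chr11:70156197-70170834, plus strand), stood at 452, 87.2 and 266 CPM, with ratios of -2.37 (-3.06 to -1.75) and -0.76 (-1.03 to -0.50). It was thus lowest at 3 days, when Mgl2 was still above its 7-day level. The inhibitory lectin Clec4a2 at 152, 79.3 and 34.6 CPM was called lower at 7 days, -2.13 (-2.84 to -1.49). Itgam, the CD11b chain, stood at 305, 147 and 111 CPM, with ratios of -1.05 (-1.59 to -0.56) and -1.45 (-1.84 to -1.08).

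Part of the 3-day values came from the Flt3-only members. Among members with Cd209a UMIs, Mgl2 stood at 865, 406 and 66.1 CPM, Clec10a at 461, 128 and 292 CPM and Itgam at 311, 191 and 121 CPM. The 3-day ratio of Itgam among them was -0.70, short of the size limit, and that of Mgl2 -1.09. Shares of cells after thinning followed the sums. Mgl2 was seen in 41.3%, 18.2% and 5.17% of members, against at most 0.368% of B cells, and Clec10a in 36.5%, 9.09% and 20.7% of members. Without thinning Mgl2 was seen in 71.4%, 22.7% and 15.5%. The surface gene that went up was Cd7, an immunoglobulin-family receptor best known from lymphoid cells, at 52.8, 249.7 and 346 CPM, in 14, 15 and 38 members, with ratios of 2.24 (1.67 to 2.82) and 2.71 (2.25 to 3.20). Its level in type 1 cells was 0, 2.11 and 8.31 CPM.

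Among transcription factors Irf4 was lower and Irf8 higher after WGP. Irf4, the type 2 factor (chr13:30749226-30766976, plus strand), stood at 78.7, 39.6 and 19.6 CPM, in 36, 7 and 10 members, with ratios of -0.99 (-2.11 to -0.03), which missed the size limit, and -2.01 (-2.99 to -1.14). Irf8, the type 1 factor (chr8:120736358-120756694, plus strand), stood at 12.4, 127 and 254 CPM, in 6, 10 and 30 members, with ratios of 3.36 (2.33 to 4.50) and 4.36 (3.49 to 5.39). Within 7-day WGP Irf8 stood at 313 CPM in Y-only and 129 CPM in Xist-only members, a log2 ratio of 1.27 (0.63 to 1.98). In 3-day WGP 1 cell held 43.8% of the Irf8 UMIs. The level remained far below that of type 1 cells, 2151, 2175 and 1946 CPM, and below that of Ly6c2-high monocytes, 371, 256 and 416 CPM. Batf3, the other type 1 factor, was lower at 7 days, at 138, 139 and 61.7 CPM and a ratio of -1.16 (-1.71 to -0.64). Of 17 factors tested, 2 were called higher and 2 lower at 3 days, and 2 higher and 4 lower at 7 days, with medians of -0.19 and -0.26.

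Rbpj and Notch2, both of the Notch pathway, were also lower. Rbpj, the DNA-binding partner of Notch, stood at 321, 99.1 and 159.5 CPM, with ratios of -1.70 (-2.35 to -1.11) and -1.01 (-1.35 to -0.68). Notch2 stood at 119, 55.5 and 87.3 CPM and was called at 3 days only, -1.10 (-2.02 to -0.29). Relb, an NF-kB subunit of mature dendritic cells, was higher at 3 days, at 85.4, 206 and 128 CPM and a ratio of 1.27 (0.73 to 1.80). Cebpb, a factor of monocyte differentiation and inflammation, was higher at 7 days, at 41.6, 23.8 and 166 CPM and a ratio of 1.99 (1.44 to 2.57), and Cebpa was lower, -1.03 (-1.80 to -0.30). The Cebpb call did not hold among Xist-only members, where the 7-day ratio was 0.29. Klf4 at 285, 249.7 and 176 CPM and Spi1 (PU.1) at 398, 535 and 549 CPM were not called. Of the 10 core genes of conventional dendritic cells, the receptor Kit was called higher at both times, at 25.9, 71.4 and 79.8 CPM, and the surface protein Cd24a lower, at 142, 43.6 and 52.7 CPM. Flt3, a rule gene, was at 96.7, 242 and 105 CPM and is the second higher core gene at 3 days, and the inhibitory receptor Btla, 1.02 (0.26 to 1.81), is the second at 7 days.

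**Figure D4:**
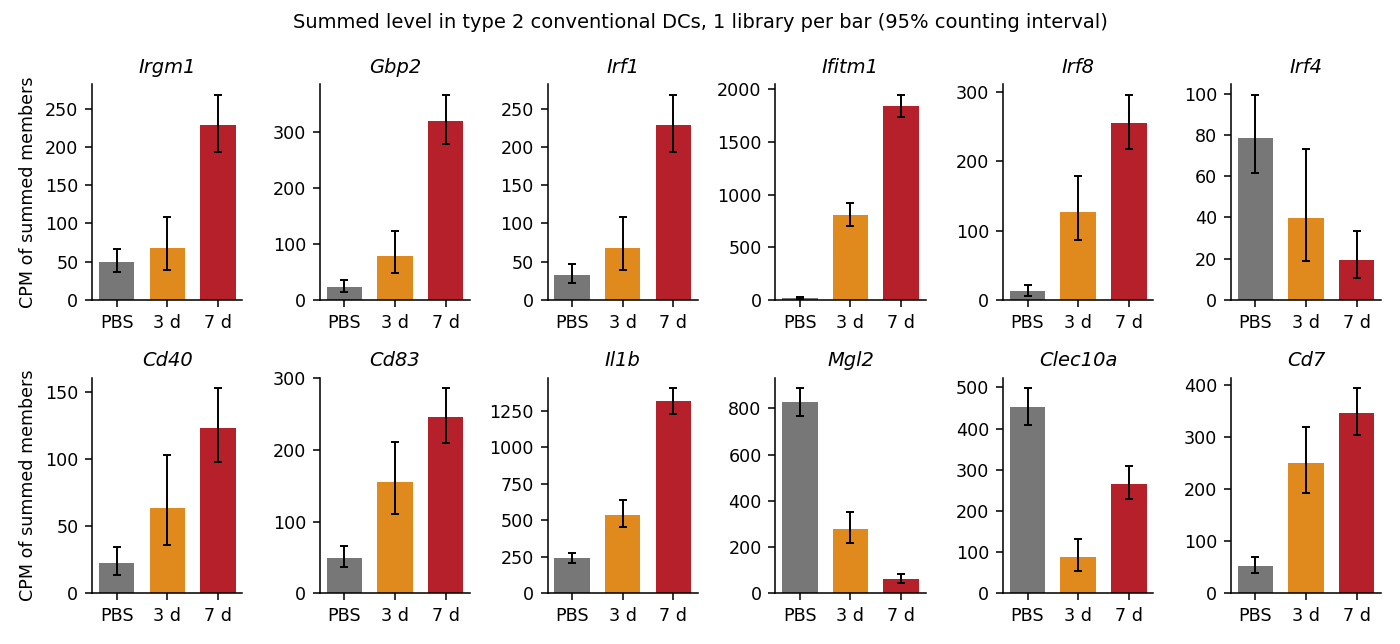
Summed level in CPM (vertical axes, each from 0 with a scale of its own) of 12 genes in type 2 conventional dendritic cells of PBS, 3-day WGP and 7-day WGP, 1 bar a library, with exact 95% Poisson intervals. Irgm1, Gbp2, Irf1, Ifitm1, Irf8, Cd40, Cd83, Il1b and Cd7 climb from PBS to 7-day WGP, while Irf4 and Mgl2 descend and Clec10a dips at 3 days.

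With sex-linked genes left aside, Ifitm1 had the largest ratio at both times of any tested gene with more than 3 UMIs in PBS. This interferon-induced membrane protein, which restricts viral entry (chr7:140967221-140969825, plus strand), stood at 19.1, 805 and 1840.3 CPM, in 10, 10 and 38 members. Its ratios were 5.40 (4.68 to 6.20) and 6.59 (5.90 to 7.37), and 4.77 and 5.88 among Xist-only members. After thinning it was seen in 1.59%, 27.3% and 48.3% of members and in 0.0819%, 0.262% and 0.759% of B cells. The 7-day level per member ran from 0 to 92.7 UMIs per 10000, with a median of 9.82, so the members were not alike. Levels in type 1 cells were 0, 0 and 167 CPM, in Fscn1 dendritic cells 112, 366 and 201 CPM and in Ly6c2-high monocytes 10.8, 207 and 182 CPM. The level of the type 2 members was above that of all 3 populations at 3 and 7 days, a difference that was not tested.

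Other genes with the largest rises included 2 of the Ly6 family, surface antigens linked to the membrane by a lipid anchor. Ly6a (Sca-1) stood at 6.74, 166 and 498 CPM, with ratios of 4.63 (3.38 to 6.15) and 6.21 (5.07 to 7.66), and Ly6i at 3.37, 27.7 and 78.2 CPM, both from few PBS UMIs and with near relatives that may share reads. Ly6i had 0 UMIs in the 15 Xist-only members of 7-day WGP, against 106 CPM in the Y-only members. At 3 days 1 cell held 85.7% of the 7 Ly6i UMIs. The transglutaminase Tgm2 stood at 2.25, 55.5 and 58.7 CPM on 2 PBS UMIs, and 1 cell held 71.4% of its 14 UMIs at 3 days. Ffar2, a receptor for short-chain fatty acids, stood at 15.7, 186 and 84.3 CPM, with ratios of 3.57 (2.68 to 4.54) and 2.42 (1.56 to 3.38). Il4i1, an amino acid oxidase of mature dendritic cells, stood at 16.9, 170.4 and 76.7 CPM, with ratios of 3.34 (2.46 to 4.29) and 2.19 (1.33 to 3.12), and a 7-day ratio of 0.71 among Xist-only members. Epcam, an epithelial and Langerhans cell adhesion protein, was at 12.4, 119 and 1.50 CPM, and 1 cell held 83.3% of its 3-day UMIs. Gzma, the granzyme of NK cells, reached 110 CPM at 7 days from 3 members that also carried other NK markers, and 1 of these held 65.8% of it.

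**Figure D5:**
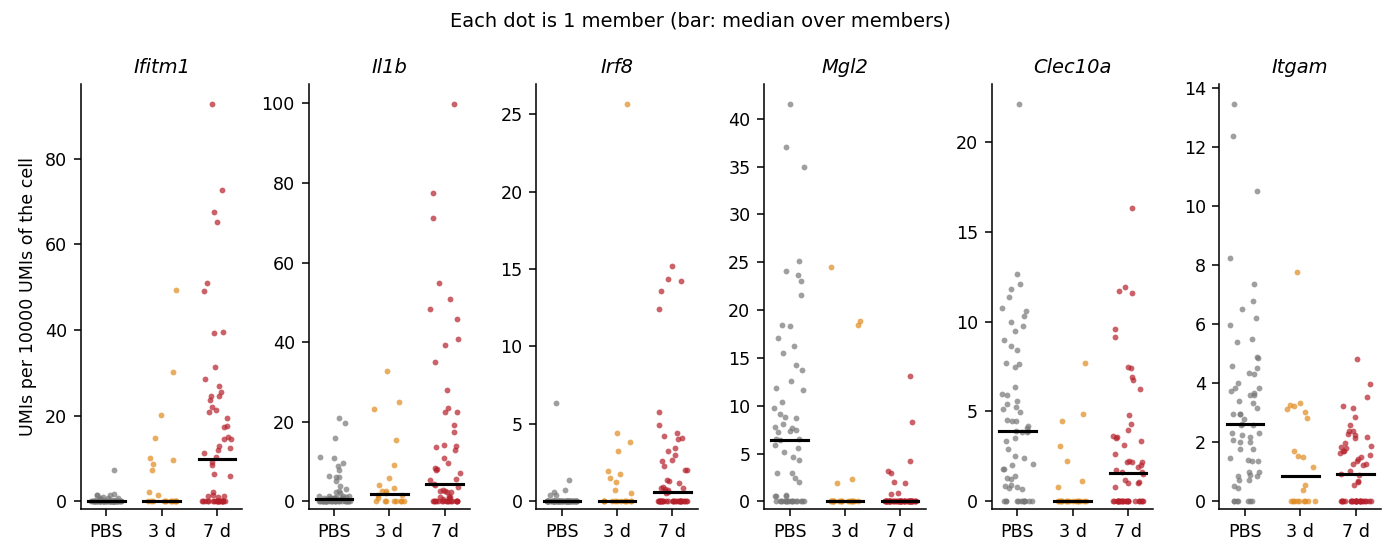
UMIs per 10000 in each type 2 conventional dendritic cell (1 point a member, vertical axes, bar at the median) for Ifitm1, Il1b, Irf8, Mgl2, Clec10a and Itgam in PBS, 3-day WGP and 7-day WGP. Ifitm1, Il1b and Irf8 spread upward among the 7-day members with many still at 0, and Mgl2 is at 0 in most members after WGP.

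Il1b, the inflammatory cytokine interleukin-1β, was the cytokine these cells carried most. It stood at 239, 539 and 1315 CPM, in 33, 14 and 41 members, with ratios of 1.17 (0.85 to 1.49) and 2.46 (2.24 to 2.68). After thinning, 17.5%, 22.7% and 37.9% of members had a UMI, against 0.246%, 1.31% and 3.95% of B cells. Among Xist-only members the ratios were 2.16 and 1.75. The other 2 of 15 cytokines that passed the level limit, Ebi3 and Tgfb1, were not called. Il12a, Il12b, Il23a and Il10, the cytokines that steer T cells, had no UMI in any library, and Tnf had 27, 3 and 9.

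Chemokines split by gene rather than moving as a group. Of 10 tested, 4 were called higher and 3 lower at 3 days, and 5 higher and 2 lower at 7 days, with medians of -0.39 and 1.13. The 3-day median turned to 2.00 among Xist-only members. Ccl3 and Ccl4, which draw T cells and monocytes, stood at 29.2, 15.9 and 414 CPM and 88.8, 353 and 868 CPM. Ccl4 was called at both times, with ratios of 1.99 (1.54 to 2.45) and 3.29 (2.95 to 3.65), and Ccl3 at 7 days, 3.82 (3.24 to 4.46). Within 7-day WGP Ccl4 stood at 1023 CPM in Y-only and 253 CPM in Xist-only members. Ccl5 was called at 3 days, at 106, 511 and 188 CPM, with 72.3% of its PBS UMIs in 1 cell. The membrane-bound Cxcl16 was called at both times, at 46.1, 123 and 123 CPM. Cxcl10, a CXCR3 ligand like Cxcl9, had 32, 0 and 463 UMIs, with 71.9% of the first and 54.6% of the last in 1 cell. Ccl6, a constitutive myeloid chemokine, was lower at 3 days, at 393, 111 and 278 CPM and a ratio of -1.83 (-2.44 to -1.27). Cxcl2 and Ccl2 were called lower on the UMIs of a few cells, with Cxcl2 in 4, 1 and 1 members and Ccl2 in 7, 2 and 3. Ccl17, a CCR4 ligand typical of type 2 cells, fell under the level limit with 62, 0 and 1 UMIs, 64.5% of those in PBS in 1 cell.

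Receptors and sensors were read beside all genes tested, of which 4.17% were called higher at 3 days and 4.26% at 7 days. Of 16 chemokine and cytokine receptors tested, 1 was called higher at each time. At 3 days it was Ccr7, the receptor that guides dendritic cells to lymph nodes, at 20.2, 151 and 15.05 CPM, with 89.5% of the 3-day UMIs in 1 cell. At 7 days it was Il4ra, the interleukin-4 receptor chain, at 37.1, 55.5 and 120.4 CPM and a ratio of 1.70 (1.10 to 2.33), which was 0.95 among Xist-only members. Ifngr1 and Ifngr2, the chains of the interferon-γ receptor, had 7-day ratios of 0.38 and -0.09. Of 9 glucan and pattern receptor genes tested, the adaptor Myd88 was called higher at 3 days, at 68.6, 186 and 129 CPM and a ratio of 1.44 (0.86 to 2.01). Syk stood at 156, 135 and 138 CPM, Card9 had 9, 2 and 6 UMIs, and the gene of dectin-1 was not analysed here. Of 16 NF-kB targets, Traf1, a signalling adaptor, was called higher at both times, at 172, 495 and 375 CPM, and Relb, given above, at 3 days. Ier3 and Tnip3 were lower at 3 days, with ratios of -2.28 (-3.63 to -1.19) and -1.57 (-2.15 to -1.03). Bcl2a1a was lower at 7 days, -2.18 (-3.15 to -1.33), and its reads may be split among near-identical copies.

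The program of CCR7+ migratory dendritic cells was raised at 3 days on few cells. Of 6 tested genes 5 were called higher at 3 days and 3 at 7 days, with medians of 2.26 and 0.88. The exception at 3 days was Marcks, -0.33. With the member holding the most UMIs of each gene left out, the 3-day median was 0.48. A single cell held 71.0% of the 3-day UMIs of Marcksl1, 60.0% of those of Tmem123 and 89.5% of those of Ccr7. Il4i1 was spread over 7 members, and Samsn1, an adaptor of B cells and dendritic cells at 36.0, 218 and 117 CPM, over 13. The migratory markers, Fscn1 excluded by the rule, summed to 60.7, 396 and 119 CPM. Their part in the 3-day ratios was not tested.

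Some genes of uptake, handling stress and the cytoskeleton were called. Over all genes tested, 4.17% were called higher and 5.16% lower at 3 days, and 4.26% and 5.16% at 7 days. Among 12 uptake and lysosome genes the activating Fc receptor Fcgr4 was higher at both times, at 4.50, 39.6 and 51.2 CPM, with a 7-day call that did not hold among Xist-only members. Its 3-day call rested on 10 UMIs in 2 members, 70% of them in 1 cell. Fcgr3 was lower at 3 days, at 66.3, 7.93 and 60.2 CPM, and the inhibitory Fcgr2b lower at 7 days, at 288, 182 and 129 CPM and a ratio of -1.15 (-1.52 to -0.80). None of 12 glycolysis genes was called, and Gapdh stood at 1099, 1114 and 1302 CPM. Of 18 immediate early and heat shock genes, which respond to handling, Atf3 was lower at 3 days, -1.09 (-1.65 to -0.57), and the chaperones Hspa1a and Dnajb1 were higher at 7 days, with ratios of 1.21 (1.08 to 1.35) and 1.59 (1.14 to 2.05), neither of them called among Xist-only members. Of 15 S100, annexin and cytoskeletal genes, S100a10 was lower at 3 days, -1.19 (-1.49 to -0.89), and Tmsb10 higher at 7 days, 1.01 (0.93 to 1.10), but 0.73 among Xist-only members.

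Proliferation genes were lower after WGP over all members, a difference that rested in part on the largest cells. Of 14 tested, 9 were called lower at 3 days and 8 at 7 days, and none higher. The nuclear antigen Mki67 stood at 182, 7.93 and 36.1 CPM, in 16, 2 and 10 members, and the topoisomerase Top2a at 175, 15.9 and 12.04 CPM, in 11, 3 and 6. Birc5 had 113, 0 and 18 UMIs, and Stmn1, Hmgb2, Mcm3 and Ube2c were called lower at both times. Mcm5 and Cenpa were called at 3 days and Tubb5 at 7 days. Members with at least 5 UMIs of 8 cell cycle genes numbered 10 of 63, 15.9% (7.88 to 27.3), 0 of 22, with an upper limit of 15.4%, and 4 of 58, 6.90% (1.91 to 16.7). With members over 20000 UMIs left out, 9 in PBS, 1 at 3 days and 0 at 7 days, the median ratio was 0.00 at 3 days and 0.17 at 7 days. That limit also removed PBS cells rich in these transcripts. The cell with 29.6% of the PBS Mki67 UMIs had 25772 UMIs in all, and the cell with 54.8% of those of Ube2c had 22648. The setting therefore cannot tell whether the fall holds apart from cell size. In type 1 cells the same list had medians of -0.49 and -1.13, and 33.8%, 23.7% and 13.6% of cells passed the same limit.

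Genes with the largest falls outside these lists were mostly carried by many PBS members. Rnf150, a ubiquitin ligase with a RING domain, stood at 77.6, 7.93 and 10.5 CPM, in 37, 2 and 5 members, with ratios of -3.29 (-6.36 to -1.38) and -2.88 (-4.25 to -1.76). Il1rl1, the interleukin-33 receptor ST2, stood at 88.8, 39.6 and 10.5 CPM, in 35, 1 and 4 members, with a 7-day ratio of -3.08 (-4.44 to -1.97). The eosinophil-associated ribonuclease Ear2 stood at 237, 163 and 7.52 CPM, with a 7-day ratio of -4.98 (-6.62 to -3.73), and Fcrls at 102, 47.6 and 4.51 CPM. Retnla (RELMα), a target of interleukin-4, stood at 197, 131 and 0 CPM, with 73.7% of the PBS UMIs in 1 cell. Mrc1, the mannose receptor, was lower at both times, at 227, 95.1 and 48.2 CPM. The cell cycle genes Pclaf, Hist1h2ap, Cdca8 and Cks1b complete the 10 largest falls.

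Some genes set type 2 members apart from the other kept barcodes in every library. After Cd209a, which the rule used, the largest lowest log2 ratio over the 3 libraries was that of Tnfsf9 at 2.91, among 1085 genes with at least 100 CPM in members of each library. Avpi1 at 2.47, the tryptophan enzyme Kmo at 2.41, the cyclin Ccnd1 at 2.39, the small GTPase Rnd3 at 2.37 and Olfm1 at 2.31 followed, then Ckb, Eps8 and Vrk1, all with ratios of at least 1.91. These ratios describe the cells the rule chose.

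Within libraries the members differed most in a few abundant transcripts. By the Fano factor, the variance of thinned counts over their mean, the leading genes were Gm42418, Malat1, Lyz2, Cd74, Cst3, Tmsb4x, Actb, H2-Ab1, H2-Aa and H2-Eb1, among 691 genes. Gm42418 overlaps ribosomal RNA genes, and Malat1 is a nuclear noncoding RNA. Lyz2, the lysozyme of macrophages and monocytes, had factors of 4.96, 7.58 and 6.42 and was seen in 39.7%, 36.4% and 43.1% of thinned members, and Cst3 factors of 4.16, 6.75 and 3.40. The genes whose share per cell followed Cd209a most closely were Mcub, Ahnak, Lyz2, Tgfbi and Ccl9, with median Spearman coefficients over the 3 libraries of 0.52, 0.49, 0.48, 0.48 and 0.47 among 994 genes. Cells of a library share its depth and free RNA, and no p-value applies.

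Marker lists of cells other than dendritic cells and monocytes, which are given above, summed to at most 442 CPM in the members. B cell markers summed to 250, 301 and 197 CPM, nearly all of it Ighm, T cell markers to at most 24.1 CPM and neutrophil markers to at most 27.7 CPM. The B and T cell lists include Cd79a, Cd3d and Cd3e, which the rule kept out, so their sums were limited in advance. Macrophage markers other than C1q summed to 373, 155 and 191 CPM, but they did not move together. Of 3 tested, 1 was called lower at 3 days, and 1 higher and 1 lower at 7 days. Mrc1 was lower at both times, and Fcgr1 stood at 99.0 CPM in Y-only and 67.4 CPM in Xist-only members of 7-day WGP. Acinar enzyme transcripts, which leak from the digested pancreas, summed to 442, 83.2 and 67.7 CPM, and the share of free RNA in the members estimated from them was 4.72%, 1.62% and 0.805%. NK markers reached 218 CPM in 7-day WGP from 3 members, and the ratios of Ifitm1, Irf8 and Mgl2 kept their calls with those members left out.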

How the data were processed

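Live CD45+ cells of mouse pancreas were profiled with 10x Genomics 3' v3.1 chemistry. The deposited values are raw UMI counts per gene and barcode, which the authors made with Cell Ranger 3.1.0 on the mm10 (GRCm38) reference, without normalization or selection of barcodes. Seurat is named in the submitters' processing notes with no version. Columns of values not used numbered 0. Groups came from the sample labels, with 1 library each.

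Barcodes with at least 1000 UMIs and at most 30% mitochondrial UMIs were kept. UMIs were summed over members and given as CPM with exact Poisson intervals, and ratios to PBS with exact conditional binomial intervals, at the 95% level. A library at 0 was set to a floor of 3 counts summed over its members, and the ratio is then a bound. Genes under a mean of 30 CPM were not tested. Shares have exact Clopper-Pearson intervals, and ratios of shares log-normal counting intervals. Shares of cells with a UMI used cells thinned to 1000 UMIs, with kept barcodes of at least 2 Cd79a UMIs as B cells. Type 1 conventional dendritic cells had at least 2 UMIs of Xcr1 and Clec9a and the same H2-Ab1 limit. Intervals and floors cover counting error only. Free RNA was estimated from the pooled barcodes with 100 UMIs or fewer.

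Genes were named by a rule: the genes of the rule for members, the 10 largest rises and falls called at each time apart from sex-linked, immunoglobulin, hemoglobin and acinar genes, list members with every one called, the 10 highest Fano factors, the 10 largest folds over other barcodes and the 5 closest correlates of Cd209a. Fabp5 and the values of monocyte and macrophage markers were added after they were seen. Some genes that met the rule are not reported here. The members and gene lists were chosen with earlier results of these data known. Doublets were left in: Scrublet's automatic threshold marked 0, 1 and 1 barcodes and was taken not to have worked, and removing the 220, 190 and 139 highest scores was an alternative. The call rule with its intervals and the thinning were tested on simulated counts. Those counts did not model UMIs concentrated in single cells, and the selection of members was not tested. Python 3.11.15, numpy 2.4.6, scipy 1.17.1, pandas 2.3.3, matplotlib 3.10.9 and scanpy 1.11.5 were used. Coordinates are of GRCm38 (GENCODE vM21), and promoters are of RefSeq on GRCm38.p6.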

Additional observations from a re-analysis of the deposited data

Results flagged for a closer look

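Cxcl10, Epcam and Fabp5 stood out because their log2 ratios to PBS were called in opposite directions at 3 and 7 days. The difference between the times was not tested, and each group is 1 library. Cxcl10 was at most -1.60 at 3 days, where it had 0 UMIs, and 4.28 at 7 days, with 54.6% of its 7-day UMIs in 1 cell. Epcam was 3.27 at 3 days and -3.04 at 7 days, from 11, 30 and 1 UMIs in 5, 3 and 1 members. Fabp5, a fatty acid carrier, was 2.43 at 3 days and -1.03 at 7 days, at 135, 725 and 66.2 CPM, and 57.9% of its 3-day UMIs were in 1 cell.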

How the results depend on the processing

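No paired analysis was possible because each group is 1 library and the labels give no replicate numbers. Settings were changed in turn, and those that left out members with NK marker UMIs, kept only members with Cd209a UMIs, or left out the member with the most UMIs of each gene were chosen after seeing the data. The share ratio at 3 days, -1.41, was 2.47 among Y-only cells, where PBS had 1 member, and that at 7 days was -1.27 among Xist-only cells and 5.22 among Y-only cells. Gene ratios were not run among Y-only members for the same reason. Genes called higher at 3 days numbered 171, and 313 among Xist-only members, 303 with no CPM minimum, 61 at a minimum of 100 CPM and 87 with the top member of each gene left out. Genes called lower at 3 days numbered 212, and 124, 365 and 32 in the first 3 of those settings. At 7 days 175 were higher, and 381 with no minimum and 57 at 100 CPM, and 212 were lower, and 631 and 37. The CPM minimum changes how many genes were tested, and the other causes were not tested.

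With members over 20000 UMIs left out, the proliferation median was 0.00397 at 3 days and 0.17 at 7 days. At 3 days Hist1h2ap was then 3.59, Hmgb2 0.19, Pclaf 2.00, Stmn1 0.00397, Top2a 1.27 and Ube2c 1.59. At 7 days Birc5 was 1.40, Hist1h2ap 2.36, Hmgb2 0.94, Mki67 1.30, Pclaf 0.45, Stmn1 1.32, Top2a 0.72, Tubb5 0.17 and Ube2c 2.26. The 3-day chemokine median was 0.23 where both Flt3 and Cd209a were required, 1.35 with 1 UMI of the excluded genes allowed, 2.00 among Xist-only members and 0.051 among members with Cd209a UMIs. Allowing 1 UMI of the excluded genes also turned the 7-day median of transcription factors to 0.013, Atf3 at 3 days to 0.022 and Fabp5 at 7 days to 0.017. Requiring both genes turned Epcam at 3 days to -0.058, Il1rl1 at 3 days to 0.26 and Cxcl2 at 7 days to 0.48, and keeping members with Cd209a UMIs turned Epcam at 3 days to -0.16. Among Xist-only members 128 gene ratios left the interval they had over all members, 3 turned and 131 stayed inside. There Irf1 was -0.85 and Fabp5 -1.31 at 3 days, and Cd86 was -0.13 at 7 days. No ratio turned under the limits of 2000 UMIs, 10% mitochondrial or 40% ribosomal UMIs, free RNA subtraction, removal of the highest doublet scores or another scaling. At 252276 member UMIs in 3-day WGP, 3 counts are 11.9 CPM, which limits what a low gene can show there.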
